A study of Mus musculus with 18 samples.

Results

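The phagocyte NADPH oxidase was followed through 7 of its genes, namely Cybb, Cyba, Ncf1, Ncf4, Rac1, Rac2 and Hvcn1, in microglia and macrophages sorted from the contused mouse spinal cord. The genes were chosen by name, as parts of the complex or proteins that act with it, and with earlier results of these data known. Each matched 1 of the 53465 genes in the table. All 7 passed the filter on low counts in every comparison. RNA-seq libraries were made from 9 adult female C57BL/6J mice, of which 3 were injected with PBS (mice 1, 2 and 3), 3 with recombinant IL-13 (rIL-13; mice 5, 6 and 7) and 3 with recombinant IL-4 (rIL-4; mice 8, 9 and 10). All mice had a spinal cord contusion, received a single intraspinal injection 48 h later, and were analyzed 24 h after that injection, so that PBS is the injured and injected control and uninjured cord was not analysed here. Each mouse gave 1 library of microglia, sorted as CD45low CD11b+ F4/80+, and 1 of macrophages, sorted as CD45high CD11b+ F4/80+, for 18 libraries in 6 groups of 3.

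This oxidase moves electrons from cytosolic NADPH across a membrane to oxygen and thereby makes superoxide, which phagocytes use against microbes and which can also harm nearby tissue. Its catalytic core is a membrane flavocytochrome of a large chain, encoded by Cybb, and a small chain, encoded by Cyba, which stabilize each other. In resting cells the core is inactive. On stimulation, cytosolic proteins, among them those encoded by Ncf1 and Ncf4, and a Rac GTPase, encoded by Rac1 or Rac2, join it at the membrane. The proton channel encoded by Hvcn1 lets protons follow the electrons and so keeps the enzyme running. Microglia and infiltrating macrophages are both sources of superoxide after spinal cord injury.

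The depth was similar in all libraries, with totals between 35961305 and 45849829 counts. Levels are given as normalized counts, which are counts divided by a size factor for each of the 18 libraries. Defining markers went with the sort, since Tmem119, a marker of microglia, was between 15265 and 25603 normalized counts in PBS microglia and between 4725 and 8268 in PBS macrophages, whereas Ccr2, a receptor of infiltrating monocytes, was between 411 and 1142 and between 7202 and 9633. Neither marker was absent from the other cell type. The microglia libraries also held the 8 markers of fibroblasts and pericytes, with a summed level between 8111 and 296972 normalized counts against 11.4 to 354 in macrophages, and the 5 markers of endothelium, between 26176 and 90732 against 692 to 16064. The 13 mitochondrially encoded protein genes took between 6.355% and 12.191% of the counts in rIL-4 microglia and between 2.178% and 3.529% in the other microglia. In macrophages they took 0.532% to 0.745% with PBS, 0.604% to 0.713% with rIL-13 and 0.836% to 1.414% with rIL-4. Genes detected in these macrophage groups numbered 17553 to 18174, 16867 to 17591 and 17452 to 17529. The part of these measures in the levels of the 7 genes was not tested.

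Cybb was the member whose level moved with the cytokines. It encodes the large, catalytic chain and lies on chromosome X from 9435252 to 9487771 on the minus strand (GRCm38, ENSMUSG00000015340.10). In PBS macrophages, Cybb had 12044, 10855 and 12927 normalized counts in mice 1, 2 and 3. With rIL-13, it had 4437, 5178 and 4705 in mice 5, 6 and 7, and with rIL-4 it had 4986, 5385 and 3122 in mice 8, 9 and 10. Every library with a cytokine lay below every PBS library. The mean was 11942 ± 1040 (SD, n = 3) with PBS, 4773 ± 375 with rIL-13 and 4498 ± 1208 with rIL-4. Cybb thus fell 2.45-fold with rIL-13 and 2.56-fold with rIL-4. On the log2 scale the change was -1.29 (standard error 0.19, adjusted p = 0.00496, edgeR's quasi-likelihood test) with rIL-13 and -1.36 (standard error 0.19, adjusted p = 0.00139, same test) with rIL-4. In these bulk libraries, fewer cells that express a gene and less RNA per cell cannot be told apart.

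Cybb was the only 1 of the 7 genes that passed the threshold, an adjusted p under 0.05, in macrophages with either cytokine. By this rule, 7.2% of all 13606 genes tested were called lower with rIL-4 and 1.66% with rIL-13. The call depended on which libraries entered the fit. With all 18 libraries in a single model, Cybb was at -1.36 with rIL-4 and -1.30 with rIL-13, with a standard error of 0.44 for each, and it did not pass (adjusted p = 0.0839 with rIL-4 and 0.223 with rIL-13, edgeR). The median log2 fold change of the 7 genes was -0.17 with rIL-4 and -0.19 with rIL-13, beside 0.019 and 0.005 over all genes tested. Leaving out each library in turn kept Cybb below the threshold, with adjusted p of at most 0.00861 with rIL-4 and 0.0287 with rIL-13 (edgeR).

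In microglia, Cybb started lower, and its relative spread was larger than in macrophages with the cytokines but not with PBS. The coefficient of variation was 6.56% with PBS, 63.3% with rIL-13 and 48.6% with rIL-4 in microglia, against 8.71%, 7.86% and 26.9% in macrophages. It had 2221, 2518 and 2301 normalized counts with PBS, 1242, 237 and 1112 with rIL-13, and 666, 377 and 1053 with rIL-4. Again every library with a cytokine was below every PBS library, and mouse 6 with rIL-13 had the lowest level of all 18 libraries. That library also had the highest fibroblast and pericyte sum of all 18, 296972, against 68461 and 46531 in mice 5 and 7. Its sum of 10 microglial markers was 118402, against 300065 and 220952. The part of these markers in its level of Cybb was not tested. The mean of Cybb was 2347 ± 154 (SD, n = 3) with PBS, 864 ± 547 with rIL-13 and 698 ± 339 with rIL-4. Its log2 fold change was -1.71 with rIL-4 (95% confidence interval -2.99 to -0.44, unadjusted p = 0.0137, adjusted p = 0.175, edgeR). With rIL-13 it was -1.42 (-2.68 to -0.16, unadjusted p = 0.0315, adjusted p = 0.59, edgeR). Neither passed the threshold over the 15566 genes tested.

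In microglia, edgeR therefore called 0 of the 7 genes with rIL-4 and 0 with rIL-13, where it called 2.22% and 0.366% of all genes tested. At an unadjusted p under 0.05, 1 of the 7 passed with each cytokine, Cybb, where 16.4% of all genes tested did with rIL-4 and 7.76% with rIL-13. For rIL-4, the outcome depended on the test. DESeq2's Wald test on the same libraries gave Cybb an adjusted p of 0.0249, while it called 4.29% of all genes lower, and edgeR with all 18 libraries in a single model gave 0.0326, while it called 2.82% lower. For rIL-13, DESeq2 also called 0 of the 7 genes. Cybb was the only 1 of the 7 whose rIL-13 microglia were all lower than PBS, as for 9.21% of all genes tested. The median log2 fold change of the 7 genes was 0.01 with rIL-4 and -0.036 with rIL-13, beside -0.059 and -0.00082 over all genes tested. The share of mitochondrial counts was higher in every rIL-4 microglia library than in any other, and without the mitochondrially encoded genes the log2 fold change of Cybb with rIL-4 was -1.73 (adjusted p = 0.172, edgeR).

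Other measures moved with Cybb in microglia. Genes detected numbered from 17620 to 18371 in PBS libraries, from 16132 to 16832 in rIL-13 libraries and from 15193 to 15626 in rIL-4 libraries. The 8 markers of fibroblasts and pericytes summed to between 91978 and 128724 normalized counts with PBS, 46531 and 296972 with rIL-13, and 8111 and 59029 with rIL-4. The sum of the 5 endothelial markers was between 26176 and 58362 with PBS, 53668 and 90732 with rIL-13, and 65879 and 89021 with rIL-4. That of the 8 monocyte and macrophage markers was between 1974 and 4101, 4059 and 4846, and 5199 and 10180. With rIL-4, every library was thus lower than PBS in genes detected and in the fibroblast sum, and higher in the endothelial and monocyte sums. In the endothelial list, Cldn5, Pecam1 and Flt1 were higher with rIL-4 than with PBS, without overlap. Cdh5 (837 to 1174 with rIL-4 against 899 to 1581) and Tek (3253 to 3460 against 2939 to 4617) overlapped. In the monocyte list, F10 was 185 to 881 with PBS and 2485 to 5558 with rIL-4, whereas Vcan was lower with rIL-4 (210 to 442 against 719 to 836) and Plac8 and Ly6c2 overlapped. All genes of these 3 lists had more than 3 counts in every microglia library. Their part in the level of Cybb was not tested.

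**Figure D1:**
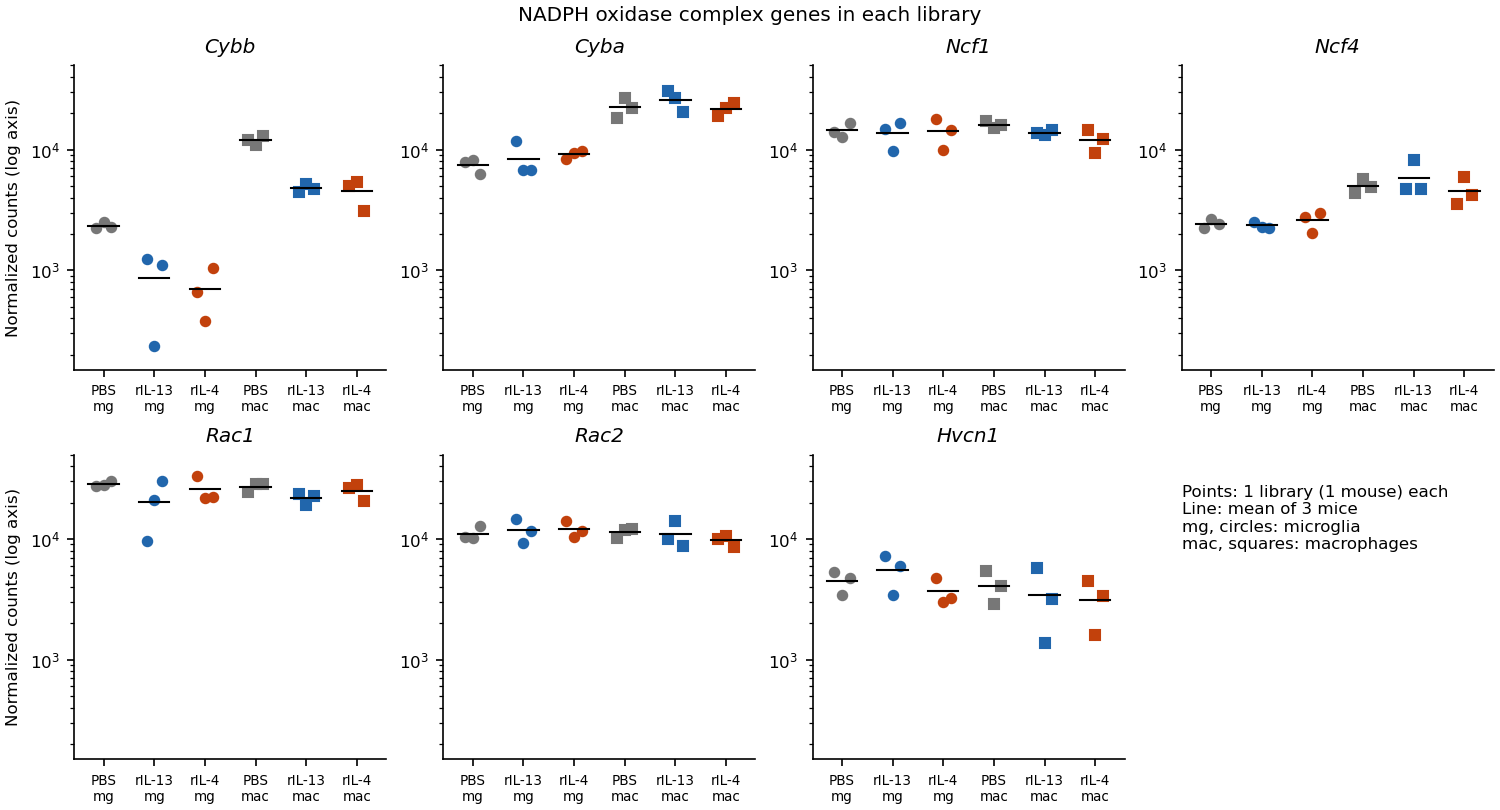
Normalized counts (log axis) of the 7 genes in each of the 18 libraries, by treatment and cell type; points are single mice and lines are means of 3 mice. Cybb with rIL-13 or rIL-4 lies below PBS in every library of both cell types, whereas Cyba and Ncf4 separate macrophages from microglia and the other genes overlap between the cell types.

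An interaction term, fitted over all 18 libraries, asked whether the response to a cytokine differed between microglia and macrophages. For Cybb, the microglial response minus the macrophage response was -0.37 on the log2 scale with rIL-4 (95% confidence interval -1.67 to 0.92, adjusted p = 0.931, edgeR) and -0.13 with rIL-13 (-1.43 to 1.16, adjusted p = 1, edgeR). These intervals include differences of more than 1 on the log2 scale. The other 6 genes had interaction values between -0.061 and 0.35 for rIL-4 and between -0.29 and 0.52 for rIL-13. None of the 7 was called in either interaction by edgeR or DESeq2, where edgeR called 0.992% and 0.0242% of all 16535 genes tested. At an unadjusted p under 0.05, 0 of the 7 passed, beside 12.4% of all genes for rIL-4 and 5.83% for rIL-13.

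The cytokines were also compared with each other. Cybb differed between rIL-4 and rIL-13 by -0.065 on the log2 scale in macrophages (95% confidence interval -0.48 to 0.35, adjusted p = 0.938, edgeR) and by -0.30 in microglia (-1.54 to 0.95, adjusted p = 0.95, edgeR). The libraries of both cytokines overlapped. The other 6 genes lay between -0.34 and 0.23 in macrophages and between -0.56 and 0.38 in microglia. None of the 7 was called by edgeR or DESeq2, where edgeR called 0.25% of all genes in macrophages and 0.0385% in microglia. At an unadjusted p under 0.05, 0 of the 7 passed, beside 11.1% and 11.4% of all genes.

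Cyba, the gene of the small chain, was not called with either cytokine in either cell type. It lies on chromosome 8 from 122424776 to 122432930 on the minus strand (ENSMUSG00000006519.11). In macrophages it had 18350, 26783 and 22038 normalized counts with PBS, 30443, 26744 and 20314 with rIL-13, and 18857, 21910 and 24452 with rIL-4. Cyba overlapped among the 3 groups. It changed by 0.24 on the log2 scale with rIL-13 (95% confidence interval -0.21 to 0.68, adjusted p = 0.606, edgeR) and by 0.0077 with rIL-4 (-0.43 to 0.45, adjusted p = 0.985, edgeR). In microglia, Cyba had 7856, 8173 and 6250 normalized counts with PBS, 11688, 6748 and 6718 with rIL-13, and 8387, 9403 and 9761 with rIL-4. The rIL-4 microglia were all above the PBS microglia, by 0.34 on the log2 scale (-0.18 to 0.87), which did not pass (adjusted p = 0.554, edgeR). Cyba was the only 1 of the 7 whose rIL-4 libraries were all higher than PBS in microglia, a pattern that 10.9% of all genes tested showed, and Cybb was the only 1 with all of them lower, as for 15% of all genes.

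The sequences around the RefSeq starts of both flavocytochrome genes are shown because edgeR called Cybb with both cytokines in macrophages and did not call Cyba. They are RefSeq promoters on GRCm38.p6, from 250 bases before to 50 bases after the first transcribed base, written 5′ to 3′ on the gene's strand. In GENCODE, 1 protein-coding transcript of Cybb begins at this RefSeq start, 9469324, and another begins 18447 bases upstream, at the end of the gene extent given above. Capitals mark matches to the letters searched.
Cybb, chrX:9469275-9469574, minus strand: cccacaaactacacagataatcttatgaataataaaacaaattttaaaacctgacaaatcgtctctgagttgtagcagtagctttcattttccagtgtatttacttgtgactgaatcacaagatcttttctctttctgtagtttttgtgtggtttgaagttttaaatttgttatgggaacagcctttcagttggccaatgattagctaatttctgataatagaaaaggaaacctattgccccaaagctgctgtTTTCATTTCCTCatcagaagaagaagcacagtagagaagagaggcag
Cyba, chr8:122432891-122433190, minus strand: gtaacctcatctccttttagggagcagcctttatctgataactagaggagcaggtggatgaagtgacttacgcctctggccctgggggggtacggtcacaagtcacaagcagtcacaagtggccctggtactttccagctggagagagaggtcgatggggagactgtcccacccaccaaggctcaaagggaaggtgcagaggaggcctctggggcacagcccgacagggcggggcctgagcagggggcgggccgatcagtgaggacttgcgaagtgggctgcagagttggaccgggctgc

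The windows were searched on both strands for 4 patterns. GGAA and GAAA with any 2 bases between them, a composite element for the myeloid factor PU.1 and interferon regulatory factors, was found in Cybb on the strand opposite to the one printed, from 3 bases after the start, and is present in 2.72% of the 32851 RefSeq promoters of this length. GAGGAA, a core element for PU.1, overlapped it on the same strand from 9 bases after the start and is present in 28.3%. The capitals in Cybb cover both matches. TTC and GAA with any 4 bases between them, the spacing preferred by STAT6, the factor downstream of IL-4 and IL-13 receptors, is in 6.95% of promoters, and the same letters with any 3 bases between them, the spacing of other STAT factors, is in 8.3%. Neither is in the Cybb or the Cyba window. In the RefSeq window of Ncf1 (chr5:134229576-134229875, minus strand), the form with 3 bases was found 88 bases before the start. These are matches of letters only, and binding was not measured.

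Because levels can be compared between genes only per length, counts were also divided by the length of the annotated exons in kb and scaled to the library total. On this scale Cyba had the highest level of the 7 genes in all 6 groups, from 203 ± 30.3 (SD, n = 3) in PBS microglia to 553 in rIL-13 macrophages. Rac1 ranked next in all groups. Cybb was the lowest of the 7 in 5 groups, from 3.08 ± 1.29 in rIL-4 microglia to 18.7 ± 5.5 in rIL-4 macrophages, and was above Hvcn1 only, at 48.8 ± 4.8, in PBS macrophages. In PBS macrophages, the level of Cybb was higher than that of 93.8% of the genes compared, and in PBS microglia higher than that of 78%. The corresponding values for Cyba were 99.5% and 98.8%.

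The ratio of the chains was computed in each library from these per-length levels. The log2 ratio of Cybb to Cyba was -3.09, -3.79 and -3.25 in PBS macrophages, -5.26, -4.85 and -4.59 with rIL-13, and -4.40, -4.51 and -5.45 with rIL-4. In microglia it was -4.31, -4.18 and -3.92 with PBS, -5.72, -7.32 and -5.08 with rIL-13, and -6.14, -7.13 and -5.70 with rIL-4. Within each cell type, every cytokine library was below every PBS library. Expressed as a fold, Cyba was 10.4 times Cybb in PBS macrophages, 29.9 times with rIL-13 and 27.6 times with rIL-4, and it was 17.6, 65.7 and 79.9 times Cybb in microglia with PBS, rIL-13 and rIL-4. The rIL-13 difference in microglia was -1.90 on the log2 scale and -1.26 without mouse 6, the library with the lowest ratio. The exact permutation test, two-sided, gave 0.1 for each of these 4 differences from PBS, which is the lowest p possible with 3 mice in each group, so that p under 0.05 was out of reach.

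**Figure D2:**
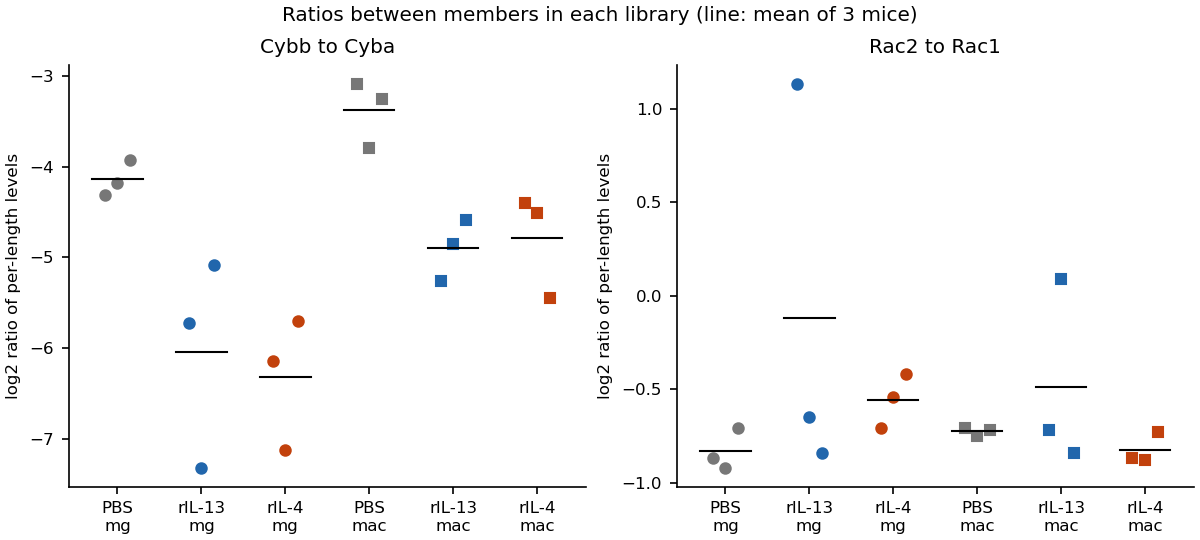
Log2 ratio of the per-length levels of Cybb to Cyba (left) and of Rac2 to Rac1 (right) in each library; points are single mice and lines are means of 3 mice. The ratio of Cybb to Cyba is lower with each cytokine in both cell types, and the ratio of Rac2 to Rac1 stays between -0.92 and -0.42 except in the libraries of mouse 5 (microglia, 1.13) and mouse 6 (macrophages, 0.089).

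The genes of the cytosolic subunits moved less. Ncf1 encodes the organizer that carries the other cytosolic subunits to the membrane, and lies on chromosome 5 from 134220053 to 134229625 on the minus strand (ENSMUSG00000015950.13). In macrophages it had 17125, 15244 and 15944 normalized counts with PBS, 13854, 13114 and 14421 with rIL-13, and 14524, 9346 and 12345 with rIL-4. All cytokine libraries were below all PBS libraries. Its log2 fold change was -0.36 with rIL-4 (95% confidence interval -0.72 to -0.012, unadjusted p = 0.0441, adjusted p = 0.164, edgeR) and -0.19 with rIL-13 (-0.54 to 0.16, adjusted p = 0.593, edgeR), and neither passed the threshold. With size factors of the macrophage libraries alone, Cybb and Ncf1 were the 2 of 7 genes whose libraries were all lower than PBS, with rIL-4 and with rIL-13, as 17.8% and 12.4% of all genes tested were. With size factors of all 18 libraries, those of the levels printed here, this also held for Rac1 with rIL-13 (19120 to 23581 against 24294 to 28576 with PBS). In microglia the Ncf1 groups overlapped, between 9682 and 18018 normalized counts.

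Ncf4, on chromosome 15 from 78244801 to 78262580 on the plus strand (ENSMUSG00000071715.11), encodes a subunit that binds the phosphoinositides of phagosome membranes. With PBS it had 4365, 5721 and 4920 normalized counts in macrophages, and the range was 4692 to 8181 with rIL-13 and 3559 to 5888 with rIL-4. The highest value, 8181, was that of mouse 6, and the groups overlapped. Ncf4 differed from PBS by 0.26 on the log2 scale with rIL-13 (95% confidence interval -0.30 to 0.81) and -0.085 with rIL-4 (-0.64 to 0.47). In microglia Ncf4 lay between 2055 and 2955 normalized counts in all 9 libraries, with log2 fold changes of -0.036 (-0.43 to 0.35) and 0.13 (-0.26 to 0.52).

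Rac1 and Rac2 encode the GTPases whose active form switches the assembled enzyme on. Rac2 is largely restricted to blood cells, whereas Rac1 is found in most cells. Rac1 lies on chromosome 5 from 143503634 to 143528036 and Rac2 on chromosome 15 from 78559167 to 78572783, both on the minus strand (ENSMUSG00000001847.14 and ENSMUSG00000033220.6). Rac1 had between 19120 and 28576 normalized counts in macrophages and between 21097 and 33462 in 8 of the 9 microglia libraries. In microglia of mouse 5, with rIL-13, it had 9682. The log2 fold changes of Rac1 were -0.29 with rIL-13 and -0.061 with rIL-4 in macrophages, and -0.48 and -0.10 in microglia, with adjusted p between 0.388 and 0.952 (edgeR). Leaving out 1 library moved the rIL-13 value in microglia from -0.48 to -0.15 without mouse 5 and to -0.90 without mouse 7. Rac2 had between 8610 and 14040 normalized counts in macrophages and between 9249 and 14619 in microglia, with log2 fold changes of -0.032 and -0.17 in macrophages and 0.11 and 0.15 in microglia for rIL-13 and rIL-4. Its groups overlapped in all of these comparisons.

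Per length, Rac1 was above Rac2 in 16 of the 18 libraries. The mean log2 ratio of Rac2 to Rac1 was -0.83 in PBS microglia and -0.72 in PBS macrophages, that is, 1.78 and 1.65 times as much Rac1 as Rac2. It was higher in rIL-4 microglia than in PBS microglia by 0.28, without overlap (two-sided p = 0.1, exact permutation test, the smallest possible). The other cytokine differences overlapped. The 2 libraries with more Rac2 than Rac1 were microglia of mouse 5, at 1.13, and macrophages of mouse 6, at 0.089.

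Hvcn1, the gene of the proton channel, lies on chromosome 5 from 122206804 to 122242297 on the plus strand (ENSMUSG00000064267.13). It varied most among macrophages of a group. It had 5386, 2880 and 4033 normalized counts with PBS, 5769, 1373 and 3172 with rIL-13, and 4433, 1586 and 3341 with rIL-4. Mice 6 and 9 had the lowest values. Hvcn1 differed from PBS by -0.21 on the log2 scale with rIL-13 (95% confidence interval -1.29 to 0.86) and -0.34 with rIL-4 (-1.42 to 0.74). In microglia Hvcn1 had 5263, 3446 and 4755 normalized counts with PBS, 7156, 3424 and 5905 with rIL-13, and 4782, 3025 and 3235 with rIL-4, and the log2 fold changes were 0.31 (-0.38 to 0.99) and -0.25 (-0.93 to 0.43). Mice 6 and 9 again had the lowest value of their groups, and all groups overlapped.

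**Figure D3:**
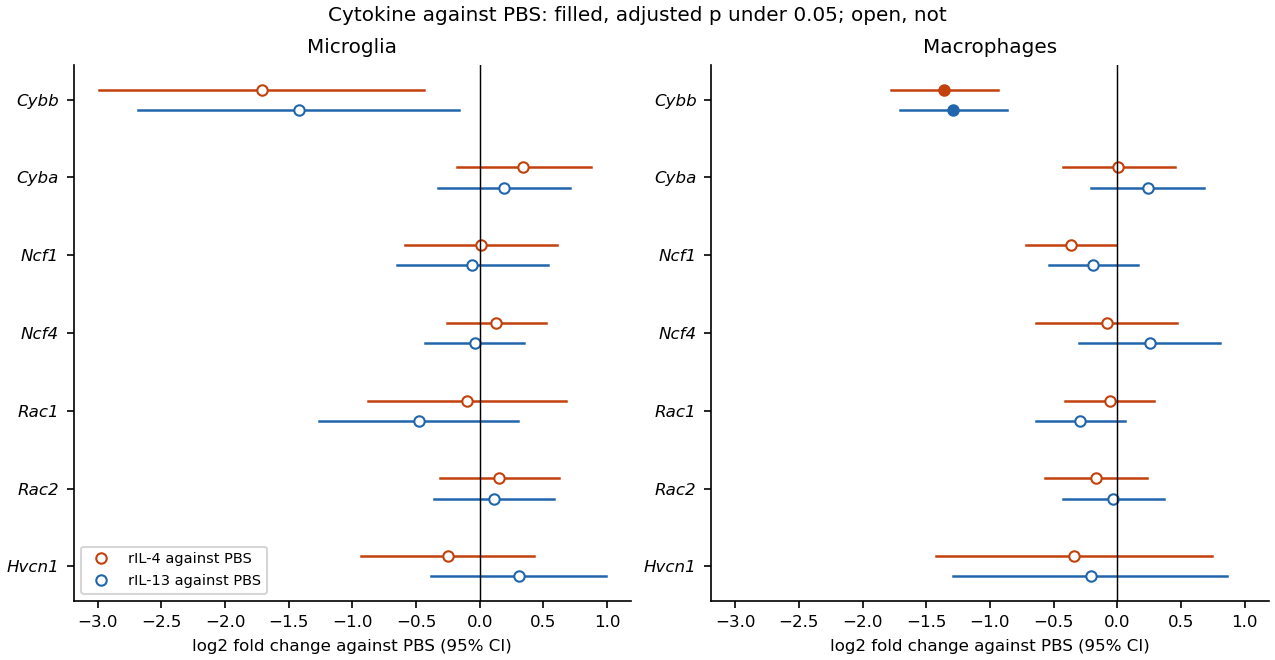
Log2 fold changes of the 7 genes with rIL-4 or rIL-13 against PBS in microglia and macrophages, with 95% confidence intervals; filled points had an adjusted p under 0.05 in edgeR. Cybb, with values from -1.71 to -1.29, is the only gene whose interval lies below 0 in all 4 comparisons, and it is filled in macrophages only.

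The libraries of mice 6 and 9 stood apart in other genes too. Among the macrophages of their groups, mouse 6 with rIL-13 and mouse 9 with rIL-4 had the highest summed levels of 12 neutrophil markers, 124117 and 34701 normalized counts, and of 8 monocyte and macrophage markers, 82237 and 66615. In the other macrophage libraries, the neutrophil sum was between 41297 and 64229 with PBS, 21722 and 23128 with rIL-13, and 10211 and 17840 with rIL-4. Of the 12 neutrophil markers, between 10 and 12 had more than 3 counts in each macrophage library, and the granulocyte marker Ly6g lay between 16.6 and 231 normalized counts. Neutrophils also carry this oxidase, and by the study's gates granulocytes are F4/80- and fall outside the F4/80+ sort. Without both libraries, an alternative chosen after the marker levels were seen, Cybb changed by -1.51 with rIL-4 and -1.35 with rIL-13 (adjusted p = 0.000697 and 0.00285, edgeR), Ncf4 by -0.31 and -0.05, and Hvcn1 by -0.022 and 0.17. Each cytokine group then held 2 mice, and the neutrophil sums of all these libraries were below those of every PBS library, so that they moved in the same direction as Cybb. With rIL-4 the sums were below PBS with mouse 9 included too. The part of the neutrophil markers in the change of Cybb was not tested.

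Levels of microglial markers moved in the same direction as Cybb. The summed level of 10 microglial markers was between 113446 and 171008 normalized counts in PBS macrophages, 46542 and 93131 with rIL-13, and 18779 and 33995 with rIL-4. In microglia it was between 264426 and 473268 with PBS, 118402 and 300065 with rIL-13, and 108507 and 183004 with rIL-4. All 10 had more than 3 counts in every library. In macrophages, the sum of the 5 endothelial markers went from 692 to 757 in PBS libraries up to 4783 to 8312 with rIL-13 and 7603 to 16064 with rIL-4, and 4 or 5 of them had more than 3 counts in each library. Its members did not move together. Pecam1 went from 290 to 399 with PBS up to 3752 to 6917 with rIL-13 and 5658 to 12281 with rIL-4, and Flt1 from 129 to 359 up to 948 to 1295 and 1718 to 3741. Tek lay lower with both cytokines (14.7 to 20 with PBS, 1.13 to 3.26 and 0 to 3.8), Cldn5 lower with rIL-4 (64.7 to 135 against 27.6 to 41.5), and Cdh5 overlapped. The sum of the 8 fibroblast and pericyte markers was 185 to 329 with PBS, 157 to 354 with rIL-13 and 11.4 to 50.2 with rIL-4, where Lum was at 0. The part of these markers in the change of Cybb was not tested.

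In the order of its 6 group means, Cybb was highest in PBS macrophages, followed by macrophages with rIL-13 and rIL-4, which overlapped, then by PBS microglia, and then by microglia with rIL-13 and rIL-4, which overlapped. The steps between these sets were free of overlap. Cyba and Ncf4 fell into a set of macrophage groups and a set of microglia groups, with overlap within each set and none between them. For Ncf1, Rac1, Rac2 and Hvcn1, every group overlapped the next in order.

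Microglia and macrophages differed in 3 of the 7 genes with every treatment, namely Cybb, Cyba and Ncf4, all of them lower in microglia. With PBS, the log2 fold change between microglia and macrophages was -2.41 for Cybb (standard error 0.12, adjusted p = 4.08e-06), -1.65 for Cyba (standard error 0.16, adjusted p = 9.83e-05) and -1.10 for Ncf4 (standard error 0.14, adjusted p = 0.000359, all edgeR). Thus Cybb was 5.31-fold, Cyba 3.14-fold and Ncf4 2.14-fold lower in microglia. For these genes, no microglia library reached the lowest macrophage library. Of all 14715 genes tested with PBS, 16.3% were called lower in microglia, and 21.9% had no overlap in this direction.

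With the cytokines, Cybb was 6.6-fold lower in microglia with rIL-4 and 5.61-fold lower with rIL-13 (log2 fold change -2.72 and -2.49, standard error 0.40 and 0.55, adjusted p = 0.00262 and 0.0141, edgeR). Cyba was 2.44-fold and 3.13-fold lower (-1.29 and -1.65, adjusted p = 0.00135 and 0.00489, edgeR). Ncf4 was 1.81-fold and 2.53-fold lower (-0.86 and -1.34, adjusted p = 0.0366 and 0.00645, edgeR). The same rule called 9.97% of all genes lower in microglia with rIL-4 and 9.46% with rIL-13, and the libraries of the 3 genes did not overlap in either treatment, as for 19.4% and 18.8% of all genes. The call of Ncf4 with rIL-4 was the weakest. Its adjusted p was 0.0756 with the mouse as a block and between 0.0628 and 0.106 without any 1 of the microglia libraries of mice 8 and 9 or the macrophage libraries of mice 9 and 10 (edgeR), so that 2 of 7 genes were then called.

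For the remaining 4 genes, the microglia and macrophage libraries overlapped. With PBS, the log2 fold change of microglia against macrophages was -0.22 for Ncf1 (95% confidence interval -0.52 to 0.082), 0.0095 for Rac1 (-0.25 to 0.27), -0.092 for Rac2 (-0.39 to 0.21) and 0.071 for Hvcn1 (-0.48 to 0.63). With rIL-4 the values were 0.19, 0.0044, 0.27 and 0.20, and with rIL-13 they were -0.035, -0.13, 0.10 and 0.65. None passed the threshold. With the mouse as a block, Hvcn1 passed with rIL-13, at 0.81 with an adjusted p of 0.0461 (edgeR), which raised the count there to 4 of 7.

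Markers of other cells also differed in this comparison. The sum of the 12 neutrophil markers was between 6779 and 9716 normalized counts in PBS microglia against 41297 to 64229 in PBS macrophages, between 4529 and 7286 against 10211 to 34701 with rIL-4, and between 3567 and 12829 against 21722 to 124117 with rIL-13. Of these markers, Csf3r alone had 3359 to 6645 normalized counts in PBS microglia, whereas Ly6g had 0 to 12.8 and Cxcr2 1.95 to 192. In microglia, Mpo was at 0 in every library, and Elane was at 0 with PBS and rIL-13. The summed markers of fibroblasts and endothelium, given above, were higher in every microglia library than in any macrophage library. Their part in the differences of Cybb, Cyba and Ncf4 was not tested.

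An assembly factor outside the 7 genes also differed between the cell types. Cybc1, listed as BC017643, encodes a chaperone needed to assemble the flavocytochrome. It had 2074 ± 321 normalized counts (SD, n = 3) in PBS microglia and 4343 ± 233 in PBS macrophages, and it was at -1.13, -0.93 and -1.10 on the log2 scale in microglia against macrophages with PBS, rIL-4 and rIL-13 (adjusted p = 0.000334, 0.0046 and 0.0328, edgeR). The last of these calls was lost in 4 of 13 alternatives. Against PBS, it was not called with either cytokine in either cell type.

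**Figure D4:**
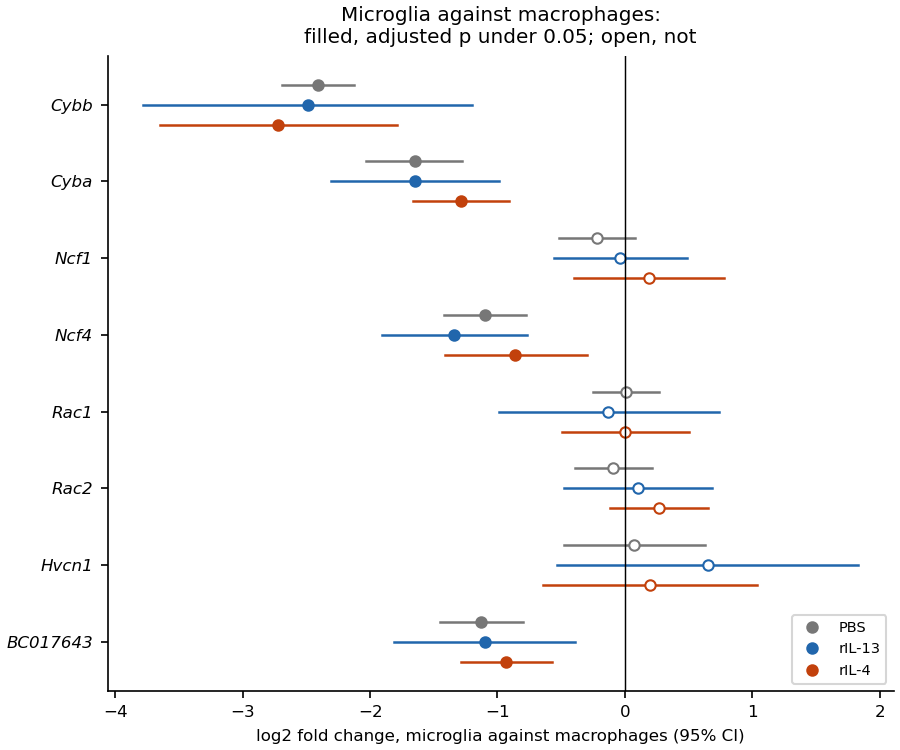
Log2 fold changes of microglia against macrophages for the 7 genes and for BC017643, with 95% confidence intervals, for each treatment; filled points had an adjusted p under 0.05 in edgeR. Cybb, Cyba, Ncf4 and BC017643 are lower in microglia with all 3 treatments, and the intervals of Ncf1, Rac1, Rac2 and Hvcn1 include 0.

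Other oxidases of the family and their partners were scarce. The catalytic chains Nox3 and Duox1, the activator Noxa1 and the maturation factor Duoxa2 were at 0 counts in all 18 libraries, and Nox1 and Duox2 averaged at most 4.15 normalized counts in any group. Nox4, an oxidase of non-phagocytic cells such as fibroblasts and endothelium, averaged 225 normalized counts in PBS microglia, with a range of 90.5 to 448, and 0.364 in PBS macrophages. Of the partners, Noxo1 averaged 58.2 and 8.7 in these groups, and Duoxa1 at most 57.7, in rIL-13 microglia. Nox4 and Noxo1 were called higher in PBS microglia, as 24.5% of all genes tested were (log2 fold change 8.77 and 2.67, adjusted p = 0.000384 and 0.0164, edgeR). The call of Noxo1 was lost in 4 of 12 alternatives.

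The related genes were 50 genes in 6 lists, comprising BC017643, other oxidases, regulators of Rac, kinases and lipid signals upstream of assembly, enzymes of cytosolic NADPH supply, and transcription factors known at Cybb or its partners. In macrophages with rIL-4, 2 of 42 tested rose and 5 fell, where 6.77% of all genes tested were called higher and 7.2% lower. With rIL-13, 2 rose and 2 fell, beside 2.53% and 1.66% of all genes, and these 4 were among the 7 called with rIL-4. The median log2 fold change of the 42 genes was -0.12 with rIL-4 and -0.058 with rIL-13, beside 0.019 and 0.005 over all genes tested.

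Of 11 Rac regulators and related GTPases, 3 fell with rIL-4 in macrophages. Vav1, an exchange factor that activates Rac, went from 14241 ± 1022 normalized counts (SD, n = 3) with PBS to 7744 ± 377 with rIL-4 and 9510 ± 814 with rIL-13, log2 fold changes of -0.83 and -0.55 (adjusted p = 0.00161 and 0.0299, edgeR). Prex1, another exchange factor, fell by 0.61 and Arhgap25, which inactivates Rac, fell by 0.57 with rIL-4 (adjusted p = 0.0457 and 0.0444, edgeR). The calls of Prex1 and Arhgap25 were lost in 8 and 7 of 14 alternatives, and that of Vav1 with rIL-13 in 9.

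Of 12 kinases and lipid signals, 1 rose and 1 fell with each cytokine in macrophages, and both are protein kinase C genes. Prkcd, whose product phosphorylates the cytosolic subunits, rose from 9432 ± 670 normalized counts (SD, n = 3) to 20805 ± 3246 with rIL-4 and 16935 ± 1486 with rIL-13, log2 fold changes of 1.19 and 0.87 (adjusted p = 0.000614 and 0.00839, edgeR). Prkcb, another kinase of these subunits, had 1015 ± 18.3 normalized counts with PBS and 517 ± 116 with rIL-4, and its log2 fold changes were -0.92 with rIL-4 and -0.94 with rIL-13 (adjusted p = 0.00821 and 0.019, edgeR). In microglia, Prkcd had 5755 ± 662 normalized counts with PBS, 13799 ± 2932 with rIL-4 and 11439 ± 4490 with rIL-13, and did not pass (adjusted p = 0.0703 and 0.386, edgeR). Its rIL-4 libraries were all above PBS, as for 10.9% of all genes tested. With rIL-13 its lowest library, at 6371, was close to the highest PBS library, at 6164. In macrophages, the call of Prkcb was lost in 5 of 14 alternatives with rIL-13 and in 1 with rIL-4, and the rIL-13 call of Prkcd in 2.

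Of 11 genes of NADPH supply, Idh1, the cytosolic NADPH-producing isocitrate dehydrogenase, was the 1 gene called with a cytokine against PBS. It rose in macrophages from 7900 ± 110 normalized counts (SD, n = 3) to 16555 ± 3538 with rIL-4 and 13943 ± 3365 with rIL-13, log2 fold changes of 1.12 and 0.85 (adjusted p = 0.0057 and 0.0475, edgeR). In microglia it rose with rIL-4, from 3377 ± 456 to 7800 ± 1921, 1.24 on the log2 scale (adjusted p = 0.0206, edgeR), as the only 1 of 43 related genes called there, where 2.22% of all genes were. The call in microglia was lost in 4 of 13 alternatives and that with rIL-13 in macrophages in 7 of 14. With rIL-13 in microglia edgeR called 0 of 43, and 4 had an unadjusted p under 0.05, as 7.76% of all genes tested did.

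Of 6 transcription factors, Irf8, which acts in myeloid differentiation and interferon responses, fell with rIL-4 in macrophages by 0.59 on the log2 scale (adjusted p = 0.016, edgeR). With rIL-13 it had a value of -0.52 and did not pass (adjusted p = 0.0594, edgeR). The rIL-4 call was lost in 4 of 14 alternatives. Between the cytokines in macrophages, where 0.25% of all genes were called, 1 of 42 related genes was, namely Cebpb, a factor of myeloid differentiation, which was higher with rIL-4 (3107 ± 2048 normalized counts, SD, n = 3) than with rIL-13 (409 ± 116), by 2.95 on the log2 scale (adjusted p = 0.0415, edgeR). This call was lost in 9 of 14 alternatives. In the interactions, edgeR called 0 of 44 related genes, and 3 for rIL-4 and 0 for rIL-13 had an unadjusted p under 0.05, beside 12.4% and 5.83% of all genes tested.

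**Figure D5:**
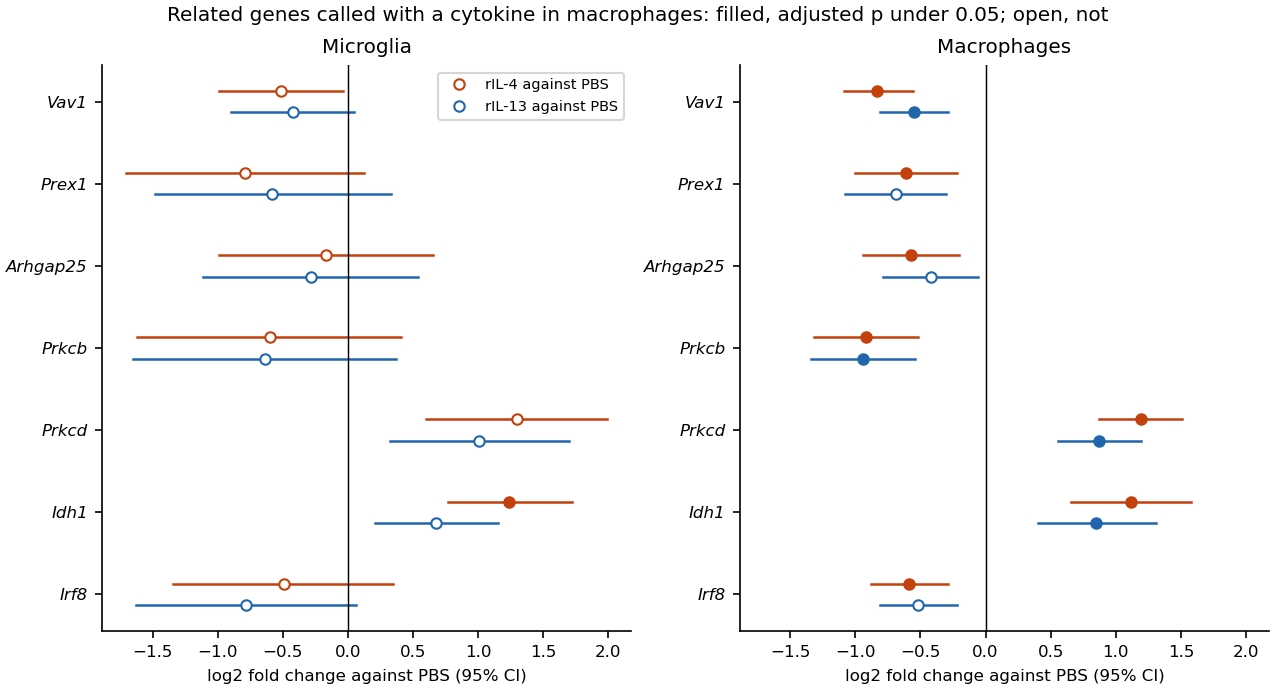
Log2 fold changes against PBS of the 7 related genes called with a cytokine in macrophages, in both cell types, with 95% confidence intervals; filled points had an adjusted p under 0.05 in edgeR. In macrophages Prkcd and Idh1 rise and Vav1, Prex1, Arhgap25, Prkcb and Irf8 lie below 0 with both cytokines.

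Between the cell types with PBS, 9 of 43 related genes were called higher and 20 lower in microglia, where 24.5% and 16.3% of all genes tested were, and the median was -0.43 beside 0.041 over all genes tested. Of the 11 Rac regulators and related GTPases, 1 was higher and 5 lower. Vav3, an exchange factor, had 905 normalized counts in macrophages and 127 in microglia, and Rac3, the GTPase of the family found in the nervous system, had 105 and 263 (adjusted p = 0.0019 and 0.0154, edgeR). Of the 12 kinases and lipid signals, 4 were higher and 5 lower. Prkca, a further protein kinase C, and Pak1, a kinase bound by Rac, were higher in microglia by 2.41 and 0.91 on the log2 scale, whereas Syk, which acts below phagocytic receptors, and Pik3r5, a subunit of a lipid kinase, were both at -1.15 (adjusted p = 0.0065, 0.00222, 0.000155 and 0.00484, edgeR). Of the 11 genes of NADPH supply, 2 were higher and 5 lower. The malic enzyme gene Me1 and the glucose transporter gene Slc2a1 were higher by 3.26 and 1.48, and Idh1 was at -1.28 (adjusted p = 0.00164, 0.00198 and 0.000126, edgeR). Of the 6 transcription factors, 4 were lower, among them Spi1, the gene of PU.1, at -0.70 and Elf1 at -0.71 (adjusted p = 0.00123 and 0.003, edgeR). With rIL-4, 2 of 42 were called higher and 8 lower in microglia, beside 13.4% and 9.97% of all genes, and with rIL-13, 6 and 9, beside 17.2% and 9.46%. BC017643, Syk, the lipid kinase gene Pik3cd, the pentose phosphate enzyme genes Pgd and Tkt, and Idh1 were lower and Slc2a1 higher in microglia with all 3 treatments. Some of these calls were weak. With PBS, that of Rac3 was lost in 4 of 13 alternatives, and those of Prkca and Me1 in 1 each. With rIL-4, those of Pik3cd, Tkt and Slc2a1 were lost in 1 of 13 each. With rIL-13, that of Slc2a1 was lost in 5 of 13, with adjusted p up to 0.113, and Pik3cd had an adjusted p of 0.0499 (edgeR).

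The genes whose pattern over the 18 libraries was closest to each member were found as the smallest root mean square difference of centred log2 values among 9761 protein-coding genes. For Cybb they were Abcc3, Slc37a2 and Mpeg1, with differences of 0.56, 0.59 and 0.62 beside a standard deviation of 1.61 of Cybb itself. For Cyba they were Cstb, Atp6v0c and Lrrc25, with differences of 0.23 to 0.25 beside a standard deviation of 0.79. For Ncf4, Sem1 and Lrrfip2 each differed by 0.20 beside 0.58. The closest were Ppt1 for Ncf1, Ctbp1 for Rac1, U2surp for Rac2 and Ift140 for Hvcn1. The standard deviation of Rac2 was 0.22 and that of Ncf1 0.27, so that these genes had little pattern to match.

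Some members share exon bases with a gene on the opposite strand. Reads were not stranded, so that reads in such bases cannot be told apart. Daglb overlaps 51.4% of the exon bases of Rac1, Tctn1 44.2% of those of Hvcn1 and Gtf2ird2 11.1% of those of Ncf1. In PBS macrophages Daglb had 4756 ± 595 normalized counts (SD, n = 3), Tctn1 166 ± 13.1 and Gtf2ird2 173 ± 12.6, against 27144, 4100 and 16104 for the members. In microglia of mouse 5, with rIL-13, Daglb had 4515 against 9682 for Rac1. The exons of Cybb, Cyba, Ncf4 and Rac2 overlap no other gene, and no stretch of 76 bases, the read length, is shared between Rac1 and Rac2.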

How the data were processed

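RNA was measured in 18 libraries, microglia and macrophages of 9 mice, with 1 library per mouse and cell type and no repeat runs. Per the labels and the study's methods, sorted cells were amplified with a SMART-seq2 protocol, without strand information or molecular identifiers, and the authors aligned reads to GRCm38 with STAR 2.5.3a and estimated counts per gene with RSEM 1.3.0. The deposited values are estimated counts given as whole numbers, and 0 of the 53465 rows held other values or named no gene. The annotation release is not given in the sources used here, and positions and exon lengths were taken from GENCODE vM21 (GRCm38), which holds 53274 of the gene IDs, 50604 with the same version. Totals ranged from 35961305 to 45849829 counts (median 39570356), and no pair of libraries was identical.

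Genes were tested with edgeR 4.0.16 (quasi-likelihood, TMM factors, filterByExpr) in R 4.3.3. Cytokine comparisons were fitted on the 9 libraries of a cell type, comparisons of cell types on the 6 libraries of a treatment, and interactions on all 18. P-values were adjusted by Benjamini-Hochberg over all genes tested in a comparison, and 11 comparisons were made. Their p-values weigh each difference against the spread among the libraries of a group, each from a different mouse. Standard errors were taken from the log2 fold change and the F statistic. Normalized counts used DESeq2 1.42.0 size factors over 18 libraries, and overlap within a cell type used size factors of that cell type. The fit was tested on simulated data. Other parts used Python 3.11.15, numpy 2.4.6, pandas 2.3.3 and matplotlib 3.10.9.

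Both libraries of a mouse come from the same animal, which pairs the cell types. The correlation of their deviations from the group means was between 0.012 and 0.087. The mouse entered as a block only as an alternative. Other alternatives were DESeq2's Wald test and size factors, no filter or at least 10 counts in every library, no mitochondrially encoded genes, all 18 or only 6 libraries, each library left out, and, added after the data were seen, no macrophage libraries of mice 6 and 9. Per-length levels used the union of exons, and the alternatives were the length of the longest annotated transcript and a total without mitochondrially encoded genes. Members with a promoter entry in the RefSeq table were Cybb, Cyba and Ncf1.

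The 7 members and the 6 lists of 50 related genes and 11 lists of 72 markers were chosen with earlier results of these data known. Named genes were all members, up to 4 related genes of a list and comparison, taken as those called with the largest change, and the 3 genes of most like pattern for each member. Some genes that this rule would name are not reported here. The other oxidases and BC017643 were named after their values were seen.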

Additional observations from a re-analysis of the deposited data

How the results depend on the processing

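Left-out libraries kept Cybb lower with both cytokines, with adjusted p from 0.00166 to 0.00861 (rIL-4) and from 0.00918 to 0.0287 (rIL-13) in macrophages and from 0.188 to 0.361 and from 0.497 to 1 in microglia (edgeR). With all 18 libraries in a single model the number of the 7 genes called with rIL-4 was 1 in microglia and 0 in macrophages, and with rIL-13 it was 0 in macrophages. DESeq2's Wald test called 1 with rIL-4 in microglia. With the replicate block by mouse, 3, 2 and 4 genes were called between cell types with PBS, rIL-4 and rIL-13, and 0 in either interaction; the calls that changed were those of Ncf4 and Hvcn1 given above. Over all settings, 770 log2 fold changes of members kept direction and call, and 57 changed direction, none of them a called value. With the longest transcript as the length, 23 per-length levels moved by more than 1 SD, and without mitochondrial counts 3 did; Cyba stayed the highest of the 7 in all 6 groups under both. The cause of a change was not tested. Depth was similar in all libraries, and 3 mice per group limit what can be detected.

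Changed directions against PBS in microglia were Ncf1 with rIL-4, -0.0017 without mitochondrial genes and -0.011 with all 18 libraries. In macrophages Cyba with rIL-4 was -0.0018 with DESeq2's size factors and its Wald test, -0.0082 with at least 10 counts and -0.007 with only 6 libraries. Without mice 6 and 9, Ncf4 with rIL-13 was -0.05 and Hvcn1 0.17. Between cell types, Rac1 was -0.043 (PBS) and -0.031 (rIL-4) without a filter, and with rIL-4 -0.013 with the replicate block and -0.02 with all 18 libraries; Ncf1 with rIL-13 was 0.038 with at least 10 counts.

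Leaving out 1 library gave these ranges across 0. With rIL-4 in microglia, they were -0.20 to 0.22 for Ncf1 and -0.33 to 0.014 for Rac1. With rIL-13 in microglia, they were -0.15 to 0.34 for Cyba, -0.23 to 0.15 for Ncf1, -0.10 to 0.025 for Ncf4 and -0.086 to 0.27 for Rac2. With rIL-4 in macrophages, they were -0.13 to 0.17 for Cyba, -0.33 to 0.08 for Ncf4 and -0.17 to 0.058 for Rac1. With rIL-13 in macrophages, they were -0.05 to 0.39 for Ncf4, -0.25 to 0.092 for Rac2 and -0.82 to 0.17 for Hvcn1. Between the cytokines, Cybb ranged from -0.74 to 0.07 in microglia and from -0.23 to 0.14 in macrophages. Between cell types they were -0.076 to 0.032 for Rac1 and -0.14 to 0.31 for Hvcn1 with PBS; -0.028 to 0.43 for Ncf1, -0.23 to 0.15 for Rac1 and -0.13 to 0.55 for Hvcn1 with rIL-4; and -0.23 to 0.15 for Ncf1, -0.56 to 0.19 for Rac1 and -0.11 to 0.29 for Rac2 with rIL-13. The interaction of Cybb with rIL-13 ranged from -0.49 to 0.32.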
